A study of Mus musculus with 18 samples.

Results

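Open chromatin was described at 40 genes for nuclear receptors in liver macrophages (LMs), leaving out the clock receptors and *Hnf4a*. A region of the deposited list was assigned to a gene when its midpoint lay in the gene or within 10 kb of either end, on the mm9 build with the GENCODE vM1 annotation. All 40 genes were found, and 293 of the 69499 regions, or 0.422%, were assigned to them. No region was assigned to more than 1 of these genes. LMs came from male C57BL/6J mice on a high-fat, high-sucrose diet (HFHSD) for 4 weeks, and fast-ATAC-Seq, in which a transposase cuts accessible DNA and tags it for sequencing, was run at ZT10 and at ZT22. The groups were control, *Reverb*-hDKO, which lacks both REV-ERBs, and *Reverb/Scap*-hTKO, which lacks SCAP as well, with 3 libraries of each at each time and 18 in all. CRE came from an adeno-associated virus (AAV) with the hepatocyte promoter TBG, given to adult mice with floxed alleles, and control mice received the same virus with GFP, so the deletions were directed to hepatocytes, whereas LMs were measured. The list joins all libraries and holds positions only, so the depth of a library is unknown, no spread between replicates can be given, and genotypes and times cannot be compared. Values are descriptions of this joint list, and the 95% Wilson intervals cover counting error only.

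Nuclear receptors are transcription factors, many of which are switched by small lipophilic ligands that enter the cell. Lipid and xenobiotic sensors work as partners of RXR and read fatty acids, oxysterols, bile acids, and drugs, whereas the classic steroid receptors bind DNA as pairs of themselves and carry hormone signals. Orphan receptors have no agreed natural ligand and are often set by how much of them is made, and in macrophages PPARs, LXRs, and the NR4A group are known for their part in lipid handling and inflammation.

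The label of the cells was compared with the starts of marker genes. A start was called open when a region lay within 1000 bp of any annotated transcript start of the gene. Over all protein-coding genes 57.1% had an open start. The share was near that for 12 macrophage markers, of which 8 had one (66.7%), namely *Adgre1*, *Clec4f*, *Timd4*, *Cd5l*, *C1qa*, *C1qb*, *Cd68*, and *Spi1*, whereas *Csf1r*, *Vsig4*, *Marco*, and *Lyz2* had none. Open starts were also found at 11 of 12 hepatocyte markers, including *Alb* and *Apoa1*, at 10 of 12 endothelial markers, at 5 of 12 stellate cell markers, and at 2 of 12 neuronal markers, so the macrophage label was not set apart by the count of open starts. The macrophage markers had a median of 0.784 regions per 10 kb (range, 0.0690–3.19). This was below the hepatocyte markers at 1.07 (range, 0.156–2.74) and the endothelial markers at 0.937. It was above the stellate cell markers at 0.469 and the neuronal markers at 0.122. The part of hepatocyte DNA in the openness of receptors known from hepatocytes, such as *Nr1h4*, *Nr1i2*, and *Nr1i3*, was not tested.

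Regions at lipid and xenobiotic sensors are shown first, as examples of motifs that were counted in all classes. They are printed 5′ to 3′ on the plus strand of mm9, none overlaps an annotated exon, and capitals mark the motifs, on either strand. Distances of the printed regions, and those given as before or after a start, are to the midpoint, except where an edge is named. Other measured distances from a start or first base to a region are to its nearest edge. The region in the intron of *Nr1h3*, 1937 bp before the nearest start of the gene, holds the half-site AGGTCA, the unit from which most nuclear receptor elements are built. The region in the intron of *Pparg* is the only region that holds sites of both the macrophage factor PU.1 and AP-1, with a FOXA site between them. The intron of *Nr1i2* has the only steroid element of the 293 regions, together with a half-site, the flank of *Nr1i3* has an ERR/NR5A element in a region 1047 bp from the start of *Apoa2*, the region at the first start of *Nr1h4* has a FOXA site, and an intron of *Rxra* has their only HNF1 site.
Nr1h3 intron, chr2:91037141-91037350: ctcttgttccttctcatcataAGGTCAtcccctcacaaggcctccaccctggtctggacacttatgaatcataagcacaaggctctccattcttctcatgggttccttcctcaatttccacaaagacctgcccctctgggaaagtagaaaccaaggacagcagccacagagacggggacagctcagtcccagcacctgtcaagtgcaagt
Pparg intron, chr6:115430385-115430642: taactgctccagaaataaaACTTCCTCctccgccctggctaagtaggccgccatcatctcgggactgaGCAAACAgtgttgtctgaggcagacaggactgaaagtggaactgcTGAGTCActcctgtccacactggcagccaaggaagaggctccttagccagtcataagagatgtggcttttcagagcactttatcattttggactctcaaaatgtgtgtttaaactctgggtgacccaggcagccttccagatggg
Nr1i2 intron, chr16:38287954-38288121: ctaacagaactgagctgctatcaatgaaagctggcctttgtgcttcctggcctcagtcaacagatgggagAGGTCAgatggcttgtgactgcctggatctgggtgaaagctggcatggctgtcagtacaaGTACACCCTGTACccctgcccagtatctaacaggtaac
Nr1i3 downstream, chr1:173154063-173154213: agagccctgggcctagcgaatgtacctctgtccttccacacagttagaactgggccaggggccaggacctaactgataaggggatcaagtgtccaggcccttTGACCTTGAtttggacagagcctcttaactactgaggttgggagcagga
Nr1h4 start, chr10:88996334-88996560: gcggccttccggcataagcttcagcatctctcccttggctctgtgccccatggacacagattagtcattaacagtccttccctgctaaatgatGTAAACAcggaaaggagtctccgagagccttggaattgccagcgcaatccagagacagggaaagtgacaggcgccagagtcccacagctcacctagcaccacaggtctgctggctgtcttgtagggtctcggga
Rxra intron, chr2:27614027-27614264: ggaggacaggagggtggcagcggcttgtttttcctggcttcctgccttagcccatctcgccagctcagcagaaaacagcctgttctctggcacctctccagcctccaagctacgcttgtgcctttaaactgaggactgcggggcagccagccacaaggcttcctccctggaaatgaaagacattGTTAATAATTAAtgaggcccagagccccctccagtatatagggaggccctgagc

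By the median, the 40 genes had more open regions for their length than coding genes did. Density is the number of regions per 10 kb of the gene and its flanks. The median over the 40 genes was 0.885 regions per 10 kb, compared with 0.470 over the 22367 protein-coding genes, and 26 of the 40 were above the latter. Pooled over genes, the densities were closer, at 0.598 and 0.499 per 10 kb. The 10 lipid and xenobiotic sensors had 104 regions and a median of 1.76 per 10 kb (range, 0.603–2.35), and all 10 were above the median of coding genes. The 6 receptors for retinoids, thyroid hormone, and vitamin D had 60 regions and a median of 1.08 (range, 0.270–2.83). The 19 orphan receptors had 100 regions and a median of 0.792 (range, 0–2.51), with 11 genes above the coding median. The orphan median depended on regions of neighbors and flanks, since it was 0.393 without regions at the start of another gene, 0.325 with regions whose nearest start was that of the receptor, and 0.245 without flanks, compared with 0.333, 0.282, and 0.138 over coding genes. Regions of neighbors also counted in other classes. Without regions at the start of another gene the median was 1.27 for the lipid sensors and 0.967 for the retinoid, thyroid hormone, and vitamin D receptors. With regions whose nearest start was that of the receptor, these medians were 1.13 and 0.610. The 5 steroid receptors had 29 regions and a median of 0.266 (range, 0–0.695), with 1 gene above the coding median. The densest steroid receptor gene, *Nr3c1*, lay below 8 of the 10 lipid sensors, although the ranges of the classes overlapped. Without a region were 3 genes (7.50%), whereas 25.6% of coding genes had no region in the gene or within 10 kb. These shares were not compared at like length, and the median gene length was 52.7 kb for the 40 genes and 15.4 kb for coding genes. With 50 kb flanks the median of the lipid sensors minus that of the retinoid, thyroid hormone, and vitamin D receptors was -0.101, and with 10 kb flanks it was 0.673.

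**Figure D1:**
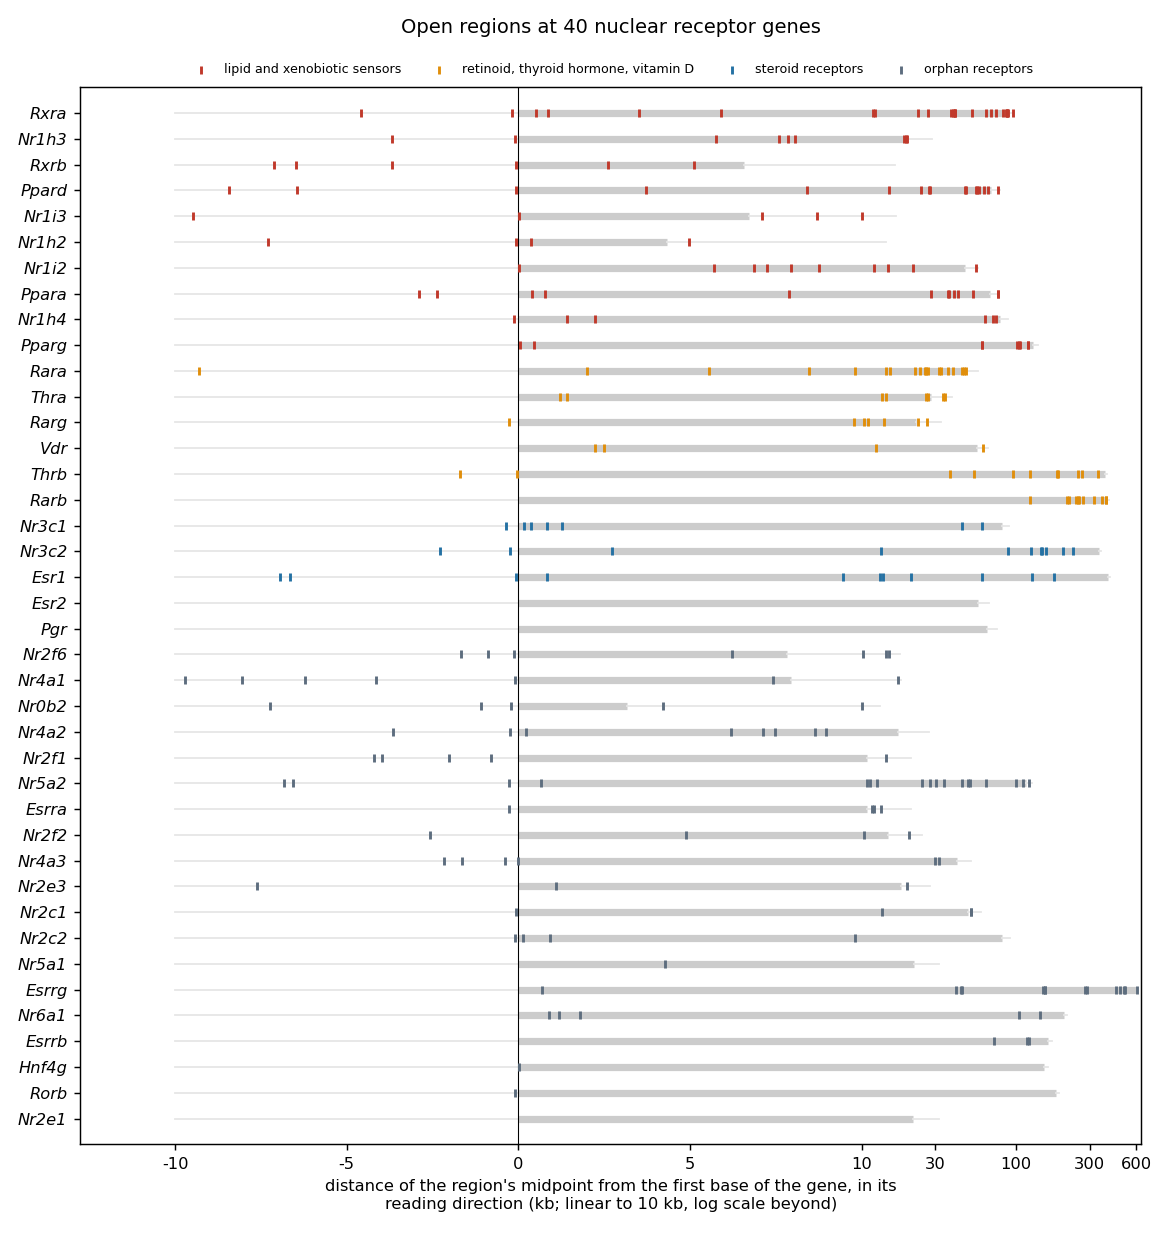
Open regions at the 40 genes. Each row is a gene and each tick the midpoint of a region, placed by its distance in kb from the first base of the gene (linear to 10 kb, log scale beyond), with the gene as a thick gray bar, its 10-kb flanks as thin lines, and the classes in color, ordered by density. Rows of *Rxra* and *Rara* are filled along the gene with 25 and 19 regions, and the rows of *Esr2*, *Pgr*, and *Nr2e1* are empty.

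Among the lipid and xenobiotic sensors, *Rxra* stood first. It encodes RXRα, the shared partner of these receptors, lies at chr2:27531960-27618477 on the plus strand, and had 25 regions, or 2.35 per 10 kb, more than 96.6% of coding genes. Of these regions, 15 were in introns, 4 within 1000 bp of its own starts, 4 in the downstream flank, 1 in the upstream flank, and 1 in an exon. *Rxrb*, for the related RXRβ, had almost the same density (2.26 per 10 kb) with 6 regions in a gene of 6.58 kb, but 3 of the 6 were at starts of its neighbors *Ring1*, *Mir219-1*, and *H2-Ke6*. Both LXR genes, which encode the oxysterol sensors, were open at the start. *Nr1h3*, for LXRα (chr2:91024218-91042991, minus strand), had 9 regions (2.32 per 10 kb), of which 4 were at its own starts and 3 at the start of *Madd*, beside its 3′ end. *Nr1h2*, for LXRβ, had 4 regions (1.64 per 10 kb) in a gene of 4.34 kb, 2 of them at its own start and 1 at that of *Pold1*.

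The 3 PPAR genes, whose products sense fatty acids, differed by up to 3.18 times in density. *Ppard* had 17 regions (1.92 per 10 kb), 12 of them in introns. *Ppara* had 13 regions (1.48 per 10 kb), with 4 at its own starts and 5 in introns, and the widest region of any lipid sensor, 354 bp, lay 197 bp before one of its internal starts. *Pparg*, known for its role in macrophage lipid uptake (chr6:115311239-115440419, plus strand), had 9 regions (0.603 per 10 kb) in a gene of 129 kb. Both of its groups of coding starts were open. A region of 334 bp covered the first start, a region of 155 bp ended 116 bp before the second, and each start had a further region within 1000 bp. The other 5 regions lay in the last part of the gene, from 101983 to 119776 bp after its first base.

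The bile acid and xenobiotic receptors are best known from hepatocytes and gut, and all 3 were open at the start. *Nr1i2*, for the xenobiotic receptor PXR, had 10 regions (1.50 per 10 kb), with 8 in introns, and a region of 273 bp covered its start. *Nr1i3*, for CAR, had 5 regions (1.87 per 10 kb), of which 1 covered its start and the other 4 were nearest to starts of other genes (*Pcp4l1*, *Tomm40l*, and *Apoa2*). *Nr1h4*, for the bile acid receptor FXR, had 6 regions (0.604 per 10 kb), of which 1 lay at its first start and 5 in introns. Its second group of coding starts was 24588 bp from the nearest region, so the 2 start groups of *Nr1h4* differed in openness.

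In the retinoid, thyroid hormone, and vitamin D class, the α genes of both hormone families were dense and the β genes sparse. *Rara*, for the retinoic acid receptor RARα (chr11:98789132-98836256, plus strand), had the highest density of all 40 genes, 19 regions or 2.83 per 10 kb, and 98.7% of coding genes were below it. Its first coding start was 1920 bp from a region, whereas a region of 273 bp covered the second, and 12 regions were in introns. *Rarg* had 7 regions (1.64 per 10 kb) and both start groups open. *Rarb* had 11 regions over a gene of 388 kb (0.270 per 10 kb), 10.5 times less dense than *Rara*. The nearest region to its first base was 123047 bp away, but the second group of coding starts had a region at 23 bp. *Thra*, for the thyroid hormone receptor TRα, had 8 regions (1.65 per 10 kb) and *Thrb* 11 regions over 377 kb (0.277 per 10 kb). *Thra* overlaps the clock gene *Nr1d1*, which encodes REV-ERBα, and 4 of its 8 regions were nearer to a start of *Nr1d1* than to its own, 1 of them within 1000 bp. *Vdr*, for the vitamin D receptor (chr15:97684856-97741061, minus strand), had 4 regions (0.525 per 10 kb). Of its 4 groups of coding starts only the third was open, with a region of 158 bp beginning 1 bp from it, and the first was 2162 bp from that region.

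The steroid receptors had the lowest median density of the 4 classes. The median of the orphan receptors exceeded it by 0.526 per 10 kb, but by 0.0417 without flanks and by 0.0591 with regions whose nearest start was that of the receptor. Above 100 kb the steroid receptor median was 0.283 (n = 2), compared with 0.273 (n = 2) for the retinoid, thyroid hormone, and vitamin D class and 0.195 (n = 6) for the orphan receptors. *Nr3c1*, for the glucocorticoid receptor, had 7 regions (0.695 per 10 kb), and 5 of these lay within 1000 bp of its starts, the most of any of the 40 genes. *Nr3c2*, for the mineralocorticoid receptor, had 11 regions over 346 kb (0.301 per 10 kb), of which 2 were at its own starts and 8 in introns. *Esr1*, for estrogen receptor α (chr10:5340927-5734948, minus strand), had 11 regions over 394 kb (0.266 per 10 kb), with 2 at its first group of starts, 7 in introns, and 2 upstream. *Esr2*, for estrogen receptor β, and *Pgr*, for the progesterone receptor, had no region, and the nearest region was 13814 bp from the first base of *Esr2* and 196525 bp from that of *Pgr*. Because the list gives no depth, a closed start means only that no region was listed there. The region of 281 bp upstream of *Esr1*, the widest in the class, is shown because it lies 6666 bp before the nearest start, away from any exon, with its half-site AGGTCA in capitals.
Esr1 upstream, chr10:5741474-5741754: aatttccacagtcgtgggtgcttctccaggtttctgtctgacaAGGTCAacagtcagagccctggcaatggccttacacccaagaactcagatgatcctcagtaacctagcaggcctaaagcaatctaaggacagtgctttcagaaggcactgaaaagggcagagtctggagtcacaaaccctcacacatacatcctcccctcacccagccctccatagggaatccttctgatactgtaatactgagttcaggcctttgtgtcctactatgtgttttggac

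The orphan receptors ranged from no region to a density like that of the lipid sensors. *Nr2f6*, an NR2F receptor with broad expression, had 7 regions (2.51 per 10 kb), 3 at its own starts and 3 at the starts of *Use1* and *Ocel1*. *Nr4a1*, an immediate early gene of activated macrophages (chr15:101097277-101105223, plus strand), also had 7 regions (2.50 per 10 kb). A region of 379 bp, the widest at any of the 40 genes, covered its start, and 4 more lay in its upstream flank, from 4161 to 9727 bp before the start. *Nr4a2* had 8 regions (2.15 per 10 kb), 4 of them at its own starts, and *Nr4a3* 6 regions (0.979 per 10 kb), so all 3 NR4A genes were open at the start. *Nr0b2*, for the corepressor SHP (chr4:133109291-133112451, plus strand), had 5 regions (2.16 per 10 kb) around a gene of 3.16 kb, with a region of 341 bp ending 42 bp before its first base. *Nr5a2*, for LRH-1, a regulator of bile acid genes, had 18 regions, 13 in introns, and was the densest of the genes over 100 kb (1.32 per 10 kb). Its relative *Nr5a1*, for SF-1 of steroid-making organs, had 1 region (0.239 per 10 kb).

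Of the remaining orphan receptors, *Nr2f1* had 5 regions (1.62 per 10 kb), of which 4 were nearest to a start of the neighboring *A830082K12Rik*. *Esrra*, for the estrogen-related receptor ERRα, a regulator of mitochondrial genes, had 4 regions (1.30 per 10 kb), 3 of them at starts of *Prdx5* and *Trmt112*. *Esrrg* had 14 regions over 606 kb (0.224 per 10 kb) and *Esrrb* 3 (0.166 per 10 kb), all in introns. *Nr2f2* had 4 regions (1.15 per 10 kb), *Nr2e3* 3 (0.792 per 10 kb), *Nr2c1* 4 (0.578 per 10 kb), *Nr2c2* 4 (0.393 per 10 kb), and *Nr6a1* 5 (0.223 per 10 kb). *Hnf4g* and *Rorb* each had 1 region (0.0582 and 0.0499 per 10 kb), and in both it lay at the first start. *Nr2e1*, a receptor of neural stem cells, had no region, and the nearest was 53726 bp from its first base.

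Regions at 2 orphan genes are shown because 3 of the 4 nuclear receptor regions with the full ERR/NR5A element are at *Nr1i3*, *Nr0b2*, and *Esrrg*, and because *Nr0b2* has a half-site and a C/EBP site in a region 1081 bp before its start. Capitals mark the ERR/NR5A element TCAAGGTCA or its reverse complement in the *Nr0b2* downstream and *Esrrg* sequences, the PU.1 site GAGGAAGT that overlaps it in *Esrrg*, and TTGCNNAA and AGGTCA in the *Nr0b2* upstream sequence.
Nr0b2 upstream, chr4:133108107-133108313: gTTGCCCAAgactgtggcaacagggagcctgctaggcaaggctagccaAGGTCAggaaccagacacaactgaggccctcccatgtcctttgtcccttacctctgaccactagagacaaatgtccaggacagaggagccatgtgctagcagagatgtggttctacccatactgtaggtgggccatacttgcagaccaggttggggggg
Nr0b2 downstream, chr4:133119254-133119479: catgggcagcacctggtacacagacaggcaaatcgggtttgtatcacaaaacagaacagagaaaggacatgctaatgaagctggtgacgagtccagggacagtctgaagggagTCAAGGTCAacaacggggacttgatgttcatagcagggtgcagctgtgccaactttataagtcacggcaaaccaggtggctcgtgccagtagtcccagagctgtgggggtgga
Esrrg intron, chr1:189477361-189477654: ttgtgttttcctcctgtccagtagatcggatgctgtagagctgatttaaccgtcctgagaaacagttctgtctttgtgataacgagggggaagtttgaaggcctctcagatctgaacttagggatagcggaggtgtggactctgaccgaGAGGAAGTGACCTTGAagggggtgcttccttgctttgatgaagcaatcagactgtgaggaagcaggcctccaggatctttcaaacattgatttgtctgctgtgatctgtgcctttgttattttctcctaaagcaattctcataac

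Over the 40 genes and over coding genes the median density fell with gene length, and the lipid sensors had higher medians than coding genes of like length. Genes under 30 kb had a median of 1.65 regions per 10 kb among the 16 nuclear receptor genes of that length and 0.544 among coding genes. From 30 to 100 kb the medians were 0.695 (n = 13) and 0.482, and above 100 kb they were 0.266 (n = 11) and 0.233. The lipid sensors had 2.06 under 30 kb (n = 4), 1.50 from 30 to 100 kb (n = 5), and 0.603 above that (*Pparg*). The orphan receptors had 1.46 (n = 10), 0.578 (n = 3), and 0.195 (n = 6). Density did not fall at every step in the other classes. The retinoid, thyroid hormone, and vitamin D receptors had 1.65, 1.68, and 0.273 (n = 2 each), and the steroid receptors had a median of 0 from 30 to 100 kb (n = 3) and 0.283 above it (n = 2). The median gene length was 57.2 kb for the lipid sensors, 51.7 kb for the retinoid, thyroid hormone, and vitamin D receptors, 80.8 kb for the steroid receptors, 21.9 kb for the orphan receptors, and 15.4 kb for coding genes. Pooled over a class, the densities were 1.46, 0.577, 0.278, and 0.475 per 10 kb in that order, and 0.499 over coding genes, so that the difference between the orphan receptors and coding genes was -0.0239 when pooled and 0.322 between the medians. Within 13 families, the denser of the 2 extreme members was the shorter gene in 8 and the longer one in 5, among them NR5A, in which *Nr5a2* was 5.51 times as dense as the shorter *Nr5a1*.

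**Figure D2:**
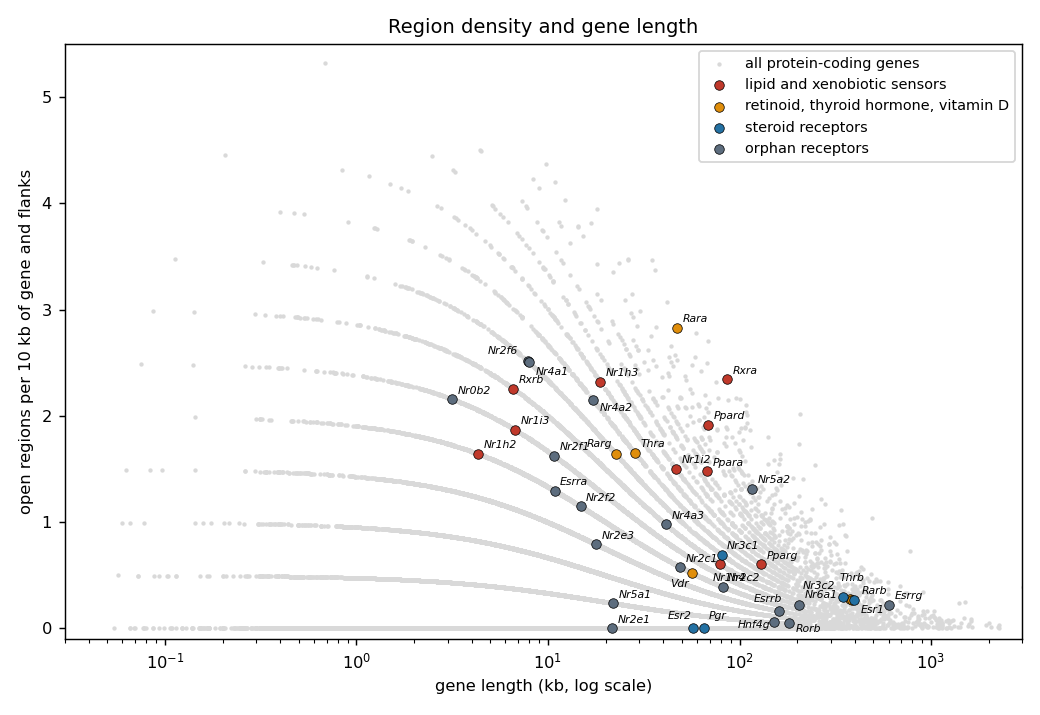
Region density and gene length. The x axis gives the gene length in kb (log scale) and the y axis the open regions per 10 kb of the gene and its flanks, with 22367 coding genes in gray and the 40 nuclear receptor genes colored by class. *Rara* and *Rxra*, at 2.83 and 2.35, lie above the other nuclear receptor genes of 30 to 100 kb, and *Esr2*, *Pgr*, and *Nr2e1* lie at 0.

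An open start was found at 34 of the 40 genes (85.0%; interval, 70.9%–92.9%) and at 57.1% of coding genes. All 10 lipid sensors (interval, 72.2%–100%) and all 6 retinoid, thyroid hormone, and vitamin D receptors (61.0%–100%) had one, compared with 15 of 19 orphan receptors (78.9%; 56.7%–91.5%) and 3 of 5 steroid receptors (60.0%; 23.1%–88.2%). These intervals overlapped, and a difference between classes was not tested. Under 30 kb, 81.25% of the nuclear receptor genes (n = 16) and 49.9% of coding genes had an open start. From 30 to 100 kb the shares were closer, 84.6% (n = 13) and 74.2%, and above 100 kb they were 90.9% (n = 11) and 66.3%. The 6 genes without an open start were *Esr2*, *Pgr*, *Nr2e1*, *Nr2e3*, *Nr2f2*, and *Esrrb*. *Nr2e3* and *Nr2f2* missed the limit narrowly, with regions 1022 bp from the first base of *Nr2e3* and 1130 bp from a coding start of *Nr2f2*, and both were open with a window of 2000 bp. With regions of at least 200 bp only, 22 of the 40 genes had an open start. The count for the retinoid, thyroid hormone, and vitamin D class rested on later starts. Within 1000 bp of the first base of the gene alone, 2 of these 6 genes had a region (*Rarg* and *Thrb*), as had 10 of 10 lipid sensors, 3 of 5 steroid receptors, 14 of 19 orphan receptors, 29 of the 40 genes (72.5%), and 53.5% of coding genes.

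CpG-rich promoters are open in most cell types, so the genes were also divided by CpG content, and a gene was called CpG-rich when the 1000 bp around its first base had an observed over expected CpG ratio of at least 0.6 and a GC content of at least 50%. Of the 19 CpG-rich genes 18 were open at the first base (94.7%), compared with 85.6% of CpG-rich coding genes, and the other one was *Nr2e1*. Of the 21 CpG-poor genes 11 were open there (52.4%), compared with 28.1% of CpG-poor coding genes. The 11 included *Nr1h3*, *Nr1h4*, *Nr1i2*, *Nr1i3*, and *Rxra*, which are all 5 CpG-poor lipid sensors. They also included *Rarg*, 1 of 5 CpG-poor genes of the retinoid, thyroid hormone, and vitamin D class, *Esr1*, 1 of 3 steroid receptors, and 4 of 8 orphan receptors (*Hnf4g*, *Nr5a2*, *Nr6a1*, and *Nr0b2*). *Rxra* and *Nr1h3* had CpG ratios of 0.583 and 0.531, near the limit of 0.6, whereas *Nr1h4*, *Nr1i3*, and *Nr1i2* had 0.269, 0.186, and 0.153. Also near the limit were *Rarg* (0.533), which was open there, and *Esr2* (0.572) and *Pgr* (0.551), which were not. The region at the first base of *Nr1h3* was nearer to a start of *Acp2*. At any annotated start 16 of the 21 CpG-poor genes were open (76.2%; coding genes, 33.2%), but *Rara*, *Rarb*, *Thra*, *Vdr*, and *Nr5a1* were open at a start whose CpG content was not measured.

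**Figure D3:**
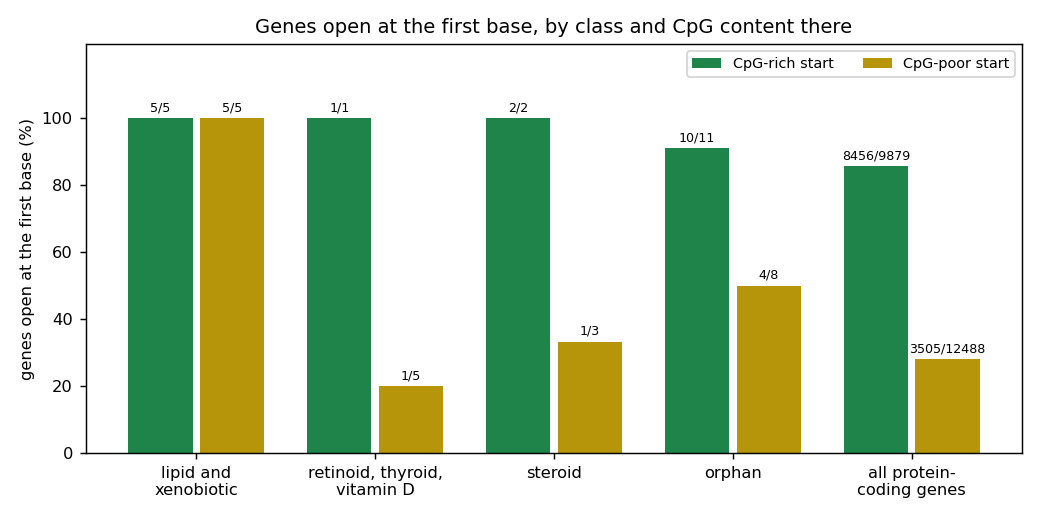
Share of genes with a region within 1000 bp of the first base (y axis, %) by class (x axis), with genes that are CpG-rich there in green and CpG-poor ones in yellow, and the number open of the number of genes above each bar. Of the CpG-poor genes, 5 of 5 lipid sensors, 1 of 5 retinoid, thyroid hormone, and vitamin D receptors, and 28.1% of coding genes were open there. Of these lipid sensors, *Rxra* and *Nr1h3* had CpG ratios near the limit.

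Many receptor genes have alternative promoters, and not all of them were open. Coding starts within 1000 bp of each other formed 81 groups, of which 44 were open. Of the 28 genes with 2 or more groups, 19 had both open and closed groups, and in 16 of those the first group was open, as in *Ppard*, *Rxra*, *Nr1h4*, *Esr1*, *Nr3c1*, *Nr4a2*, and *Nr5a2*. *Rara*, *Rarb*, and *Vdr* had a closed first group and an open later one. *Pparg*, *Rarg*, *Thra*, and *Nr2c2* had every group open, and *Esr2*, *Nr2e1*, *Nr2f2*, *Esrrb*, and *Nr5a1* none. *Nr5a1* counted as open only through a transcript without a coding sequence. The distance from a closed group to the nearest region could be long, 110106 bp for the second group of *Rorb* and 126029 bp for that of *Hnf4g*.

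Introns held the largest share of the regions, 139 of 293 (47.4%; interval, 41.8%–53.2%), whereas 34.1% of all regions of the list were in introns. Another 77 (26.3%) were within 1000 bp of the gene's own starts, 24 (8.19%) at the start of another gene, 6 (2.05%) in exons, 28 (9.56%) in the upstream flank, and 19 (6.48%) in the downstream flank. Regions between genes could be assigned only within 10 kb, which bears on this comparison of shares. The intron share was 48.1% for the lipid sensors, 56.7% for the retinoid, thyroid hormone, and vitamin D receptors, 58.6% for the steroid receptors, and 38.0% for the orphan receptors. For 239 regions (81.6%) the nearest start of a coding or lncRNA gene was that of the receptor itself, and this held for 28 of the 29 regions of steroid receptors and 82 of the 104 of lipid sensors. Of the regions at own starts, 4 were also within 1000 bp of another gene's start.

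**Figure D4:**
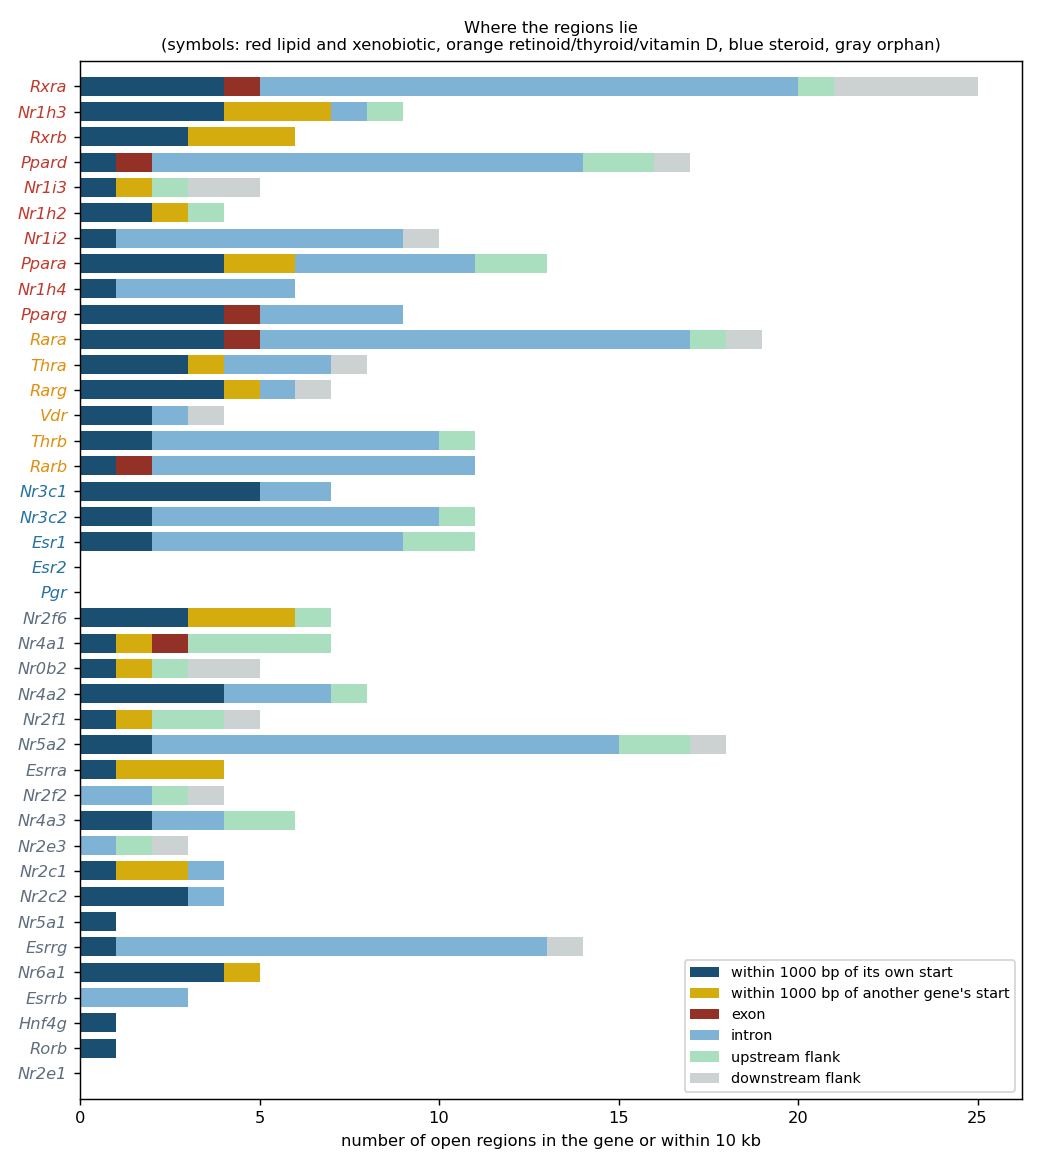
Number of open regions per gene (x axis) by place (colors), with genes ordered by class and density. The bars of *Rxra*, *Ppard*, *Rara*, *Nr5a2*, and *Esrrg* are mostly intron, with 12 to 15 intronic regions each, and those of *Rxrb*, *Nr2f6*, and *Esrra* hold 3 regions each at the starts of neighbors.

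Regions at nuclear receptor genes were about as wide as other regions. The width was 188 ± 48.8 bp (SD over 293 regions; median, 164 bp), compared with 186 ± 48.5 bp over all regions (median, 160 bp). Regions at own starts were 202 ± 57.5 bp wide (n = 77) and those away from every start 181 ± 44.3 bp (n = 192). The most frequent width, 151 bp, was given for 131 regions (44.7%), as it was for 46.5% of all regions. Regions of at least 200 bp made up 32.7% at lipid sensors, 23.3% at retinoid, thyroid hormone, and vitamin D receptors, 34.5% at steroid receptors, and 33.0% at orphan receptors.

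The shares of regions with the nuclear receptor elements that were searched lay within counting error of those in the whole list. The half-site AGGTCA was in 61 of the 293 regions (20.8%; interval, 16.6%–25.8%) and in 18.4% of all regions. By class it was in 17.3% of the regions of lipid sensors, 18.3% of those of the retinoid, thyroid hormone, and vitamin D receptors, 24.1% of those of steroid receptors, and 25.0% of those of orphan receptors. Away from every start it was in 24.0% of 192 regions and 21.4% of all such regions. All motifs were searched on both strands as exact letters, and the longer nuclear receptor motifs other than the steroid element contain the half-site. Direct and inverted repeats of the half-site with a spacer of 3 bases were not searched. The direct repeats AGGTCANAGGTCA (DR1), AGGTCANNAGGTCA (DR2), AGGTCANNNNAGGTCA (DR4), and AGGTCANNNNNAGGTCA (DR5), the inverted repeat AGGTCANTGACCT (IR1), and the ROR and REV-ERB element AANTAGGTCA were in 0 of the 293 regions, for which the upper limit of the interval is 1.29%. In all regions their shares were 0.115%, 0.0404%, 0.0317%, 0.0231%, 0.0101%, and 0.277% in that order, so these counts could not show a difference.

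Among the other elements, TCAAGGTCA, bound by the estrogen-related receptors and NR5A, was in 4 regions (1.37%; interval, 0.532%–3.46%) and in 0.548% of all regions. The 4 were at *Ppara*, *Nr1i3*, *Nr0b2*, and *Esrrg*. AAAGGTCA, the NR4A element, was in 6 regions (2.05%; all regions, 2.20%), at *Ppard*, *Nr3c2*, *Nr2c2*, *Nr2f6*, *Esrrg*, and *Nr5a2*, none of them an NR4A gene. The steroid element GNACANNNTGTNC was in 1 region (0.341%; all regions, 0.595%), in the intron of *Nr1i2* whose sequence is given. Of the motifs of other factors, the AP-1 site TGACTCA or TGAGTCA was in 18 regions (6.14%; all regions, 6.56%), the PU.1 site GAGGAAGT of the macrophage factor in 11 (3.75%; 3.82%), and the C/EBP site TTGCNNAA in 35 (11.9%; 10.4%). The liver factor sites TGTTTAC or TGTTTGC (FOXA) and GTTAATNATTAA (HNF1) were in 22 (7.51%; 8.00%) and 1 (0.341%; 0.101%), and the CTCF site CCANNAGNNGGCA in 8 (2.73%; 2.37%). Every share over all regions lay within the interval of the share at nuclear receptor genes. A match describes letters only and does not show that a factor was bound.

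**Figure D5:**
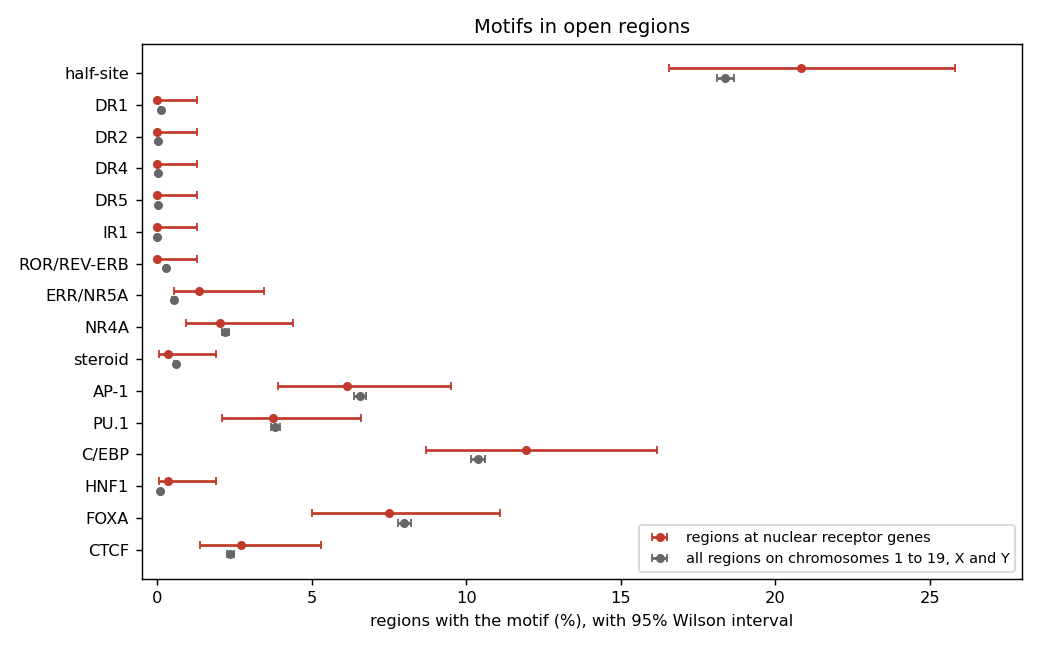
Share of regions with each motif (x axis, %), for the 293 regions at nuclear receptor genes in red and for all regions in gray, with 95% Wilson intervals. The half-site is the most frequent motif in both sets, at 20.8% and 18.4%, and 6 motifs are at 0 in the red set.

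Genes related to the 40 were described in the same way, beside 57.1% of coding genes with an open start and a coding median of 0.470 regions per 10 kb. Among receptors left out of the 40, *Nr1d1* had 5 regions (1.82 per 10 kb), *Nr1d2* 3 (0.545), *Rora* 25 (0.331), and *Hnf4a* 12 (1.39), all with an open start. All 20 coregulator genes had an open start, with a median of 0.640 regions per 10 kb. The densest was *Nrip1*, for the corepressor RIP140, with 20 regions (1.88 per 10 kb), whereas *Ncor1* had 5 (0.308 per 10 kb). Of 25 target genes 23 had an open start (92.0%), with a median of 1.33 per 10 kb. *Per1* (2.88 per 10 kb) and *Tgm2* (2.40 per 10 kb), targets of the glucocorticoid and retinoic acid receptors, were the densest, and the LXR targets *Abca1* and *Abcg1* had 20 and 14 regions. The targets without an open start were *Fabp4*, of PPARγ, and *Slc51a*, of FXR, neither of which had a region.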

How the data were processed

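Fast-ATAC-Seq was performed by the authors on isolated LMs of 18 libraries, in 6 groups of 3 given by the labels. The authors used the ATAC-Seq pipeline of the Kundaje laboratory, trimmed adapters, aligned reads to mm9 with Bowtie, merged the alignments of replicates, and called peaks, and the submitters' notes also name HOMER. The peak caller that this pipeline ran and its threshold are not given in the sources used here. The deposited list holds 3 columns of positions, pooled over libraries, so no value per library, depth, or test could be had. A listed region may have been open in some libraries only.

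Starts were converted to count from 1. Genes and transcript starts were those of GENCODE vM1 on NCBIM37, the assembly of mm9, and sequence was read from it. Places were assigned by midpoint in this order: within 1000 bp of an own start, within 1000 bp of a start of another coding or lncRNA gene, exon, intron, and flanks. Older symbols of 4 listed genes were matched by synonyms. Alternatives were other flanks (0, 5, and 50 kb), start windows (500 and 2000 bp), a minimum width of 200 bp, joining of regions at most 500 bp apart, assignment by any overlap, leaving out regions at the start of another gene, the nearest start, openness at the first base of the gene or at coding transcripts only, and motif windows of 500 bp.

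The 40 genes and all lists were chosen with earlier results of these data known. All 40 genes were accounted for by class. Described in full were the 3 densest and 2 sparsest genes of each class, those with closed or mixed starts, and those with known roles in macrophages or liver. By the rule, sequences were to be the widest region of each class and regions away from starts with a full direct or inverted repeat, ROR and REV-ERB element, or steroid element, which gave only *Esr1* and *Nr1i2*, and the others were chosen after the motifs were seen. The motif search was tested on simulated sequence and recovered 200 of 200 planted sites. These sites were made from the same letters that were searched for, so the letters themselves were not tested. A check of simulated placements gave 200 of 200, but each midpoint equaled the planted position by construction. It therefore does not test the assignment of regions to genes. Scripts ran in Python 3.11.15 with SciPy 1.17.1 and NumPy 2.4.6, and matplotlib 3.10.9 drew the figures. Some genes of the comparison lists are counted in the list totals but not reported here by name.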

Additional observations from a re-analysis of the deposited data

How the results depend on the processing

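Of 198 values under alternatives to 46 results, 142 moved by less than the limit set for them, 54 moved by more, and 2 changed sign. With 50 kb flanks 484 regions were assigned, the median density of the lipid sensors was 0.634 per 10 kb above that of the orphan receptors and 0.910 above that of the steroid receptors, and it was -0.101 relative to the retinoid, thyroid hormone, and vitamin D receptors. With regions of at least 200 bp only, these were 91 regions and differences of 0.259 and 0.455, and 22 genes had an open start. Without flanks the difference from the orphan receptors was 1.67. With regions whose nearest start belonged to the gene, the difference from the steroid receptors was 0.866. Both differences stayed positive under every alternative computed. Pooled over the class, the orphan receptors were at -0.0239 per 10 kb relative to coding genes. Relative to coding genes the orphan median was 0.0605 higher without regions at the start of another gene and 0.0427 higher with the nearest start, compared with 0.322. With the first base of the gene only, 29 genes were open, and the count for the retinoid, thyroid hormone, and vitamin D receptors went from 6 to 2; dividing this count by CpG content was chosen after seeing the data. In windows of 500 bp, 36.5% of regions had the half-site. The cause of these shifts was not tested. By construction, the width minimum leaves fewer regions and the windows hold longer sequence. No paired analysis was possible because values of single libraries were not in the pooled list, and for the same reason leaving out a replicate could not be run. Depth is unknown, so a start without a listed region is not shown to be closed.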
